A study of Homo sapiens with 12 samples.

Results

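The ADAM and ADAMTS metalloproteinases of A375 cells, a human melanoma line, were followed through treatment with SB-3CT and interferon gamma (IFNγ). Members were all rows of the deposited expression table whose gene symbol is ADAM followed by a digit, ADAMTS or ADAMTSL, leaving out 2 antisense RNAs. This gave 34 of 4918 genes, comprising 14 ADAM, 16 ADAMTS and 4 ADAMTSL genes. The symbols of the table as used here run alphabetically from A1BG to FAM46B, so genes later in the alphabet, the matrix metalloproteinases and the TIMP inhibitors included, were not analysed here. Some genes within that range, CDH1 and CXCL9 among them, have no row either, so the 34 genes may not be the whole family. RNA sequencing compared 4 groups of 3 samples each, namely control A375 cells, cells given SB-3CT, cells given IFNγ, and cells given SB-3CT together with IFNγ. RNA was taken 24 h after treatment, and the labels mention a vehicle but give no dose. SB-3CT is a small-molecule inhibitor of the gelatinases MMP2 and MMP9, and IFNγ is a cytokine of T cells and NK cells that switches on antigen presentation and immune checkpoint genes. The labels do not say whether samples came from separate cultures, so the p-values measure only the spread between these samples, which may be technical. A375 is a single cultured line, and mRNA levels say nothing of protein, prodomain removal or protease activity.

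ADAM proteins are membrane-anchored, and the catalytic members cut the extracellular part of growth factors, cytokines, adhesion molecules and receptors off the cell surface, a step called ectodomain shedding. Several ADAMs lack a working zinc site and act in cell adhesion instead. ADAMTS proteins are secreted, carry thrombospondin repeats and cut matrix proteoglycans, procollagens and other extracellular proteins, while ADAMTSL proteins share the repeats but have no protease domain. In melanoma, ADAM10 and ADAM17 are known for shedding adhesion molecules and immune ligands.

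Sequences shown first are those upstream of ADAM19 and ADAM23, the pair of genes with the lowest levels relative to control under the combined treatment among members over 1 FPKM. Each is the window of 250 bases before the RefSeq gene start (table build GRCh38.p14), located by exact match in GRCh37, and read 5′ to 3′ on the strand of the gene. The ADAM19 window lies at chr5:157002784-157003033 on the minus strand and the ADAM23 window at chr2:207308006-207308255 on the plus strand. Capitals mark GC boxes, the letters GGGCGG on either strand.
ADAM19: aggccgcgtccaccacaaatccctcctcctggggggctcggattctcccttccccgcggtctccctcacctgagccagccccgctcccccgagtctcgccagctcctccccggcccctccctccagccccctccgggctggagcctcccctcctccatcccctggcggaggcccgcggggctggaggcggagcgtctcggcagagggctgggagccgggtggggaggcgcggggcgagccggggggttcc
ADAM23: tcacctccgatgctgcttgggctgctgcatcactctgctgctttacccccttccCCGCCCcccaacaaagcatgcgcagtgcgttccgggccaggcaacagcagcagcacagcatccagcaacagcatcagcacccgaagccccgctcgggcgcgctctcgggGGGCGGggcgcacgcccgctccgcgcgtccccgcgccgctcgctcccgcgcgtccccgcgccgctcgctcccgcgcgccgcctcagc
The ADAM19 window has a GC content of 76.4% and the ADAM23 window one of 73.6%. The median was 73.6% over the members' windows and 58% over all RefSeq promoter windows, so high GC content was not particular to these genes. GGGCGG occurred 2 times upstream of ADAM23 and 0 times upstream of ADAM19. Over the 23 members with a window, GAAA followed after any 2 bases by GAAA, an interferon response element core, was in 1 (ADAMTSL1) and GGGCGG was in 18, both searched on either strand. Those letters stood in 3.02% and 42.6% of the 35116 promoter windows of the same table, all chromosomes included. The windows compared were not matched for GC content. A match is a description of letters, and the absence of one says only that these letters were not in this window.

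Before the members, a few facts of the whole data set bear on every value. Sequencing depth was not given in the files, and low values, which step in units of whole reads, put the samples at 87.1% to 150.1% of the mean control depth. Replicates correlated at 0.996 to 0.998 over genes. Of 9 melanoma markers in the table, 7 exceeded 1 FPKM, while DCT, a pigment enzyme, was at 0.0638 to 0.278 FPKM in the group means. Among markers of other cells, CD68 was the only leukocyte gene over 1 FPKM, and the summed endothelial and fibroblast markers stayed at or below 0.670 and 0.646 FPKM in every group. The summed epithelial markers were at 7.40 to 11.6 FPKM, nearly all of it the tight-junction gene CLDN4 (mean 8.69 FPKM), with EPCAM at 0.0583, and the part of other cells in any result was not tested. CXCL10, a chemokine induced by IFNγ, stood at 0.0167 FPKM in control cells and 81.7 FPKM with IFNγ, and all 5 IFNγ response genes checked were called higher in both IFNγ comparisons.

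Of the 34 genes, 14 exceeded a mean of 1 FPKM (a level per transcript length, counted in sequenced fragments and scaled to those mapped in each library) over the 12 samples, a share of 41.2% against 64.6% of the 4918 genes. ADAM15 was by far the most abundant, with a mean of 125 FPKM. ADAM9 (19.4 FPKM) and ADAM10 (18.7 FPKM) followed, and no other member exceeded 10 FPKM. ADAM17 stood at 9.08, ADAM19 at 5.47 and ADAM23 at 3.73 FPKM, which completes the 6 ADAM genes over 1 FPKM.

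Of the secreted family, 5 ADAMTS genes passed 1 FPKM, in the order ADAMTS1 (2.19), ADAMTS12 (1.69), ADAMTS7 (1.56), ADAMTS15 (1.19) and ADAMTS4 (1.13). Of the ADAMTSL genes, 3 passed, namely ADAMTSL4 (2.89), ADAMTSL5 (1.03) and ADAMTSL1 (1.02). ADAMTSL1 was just inside the threshold, and ADAMTS3 (0.951) and ADAM11 (0.756) were just outside it. The remaining 20 genes had means at or under 1 FPKM, 8 of them at or under 0.1 FPKM. ADAM9 and ADAM10, neighbours in this order, changed places between groups, with ADAM10 the higher by group mean under IFNγ and under both agents and ADAM9 the higher in the other groups.

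**Figure D1:**
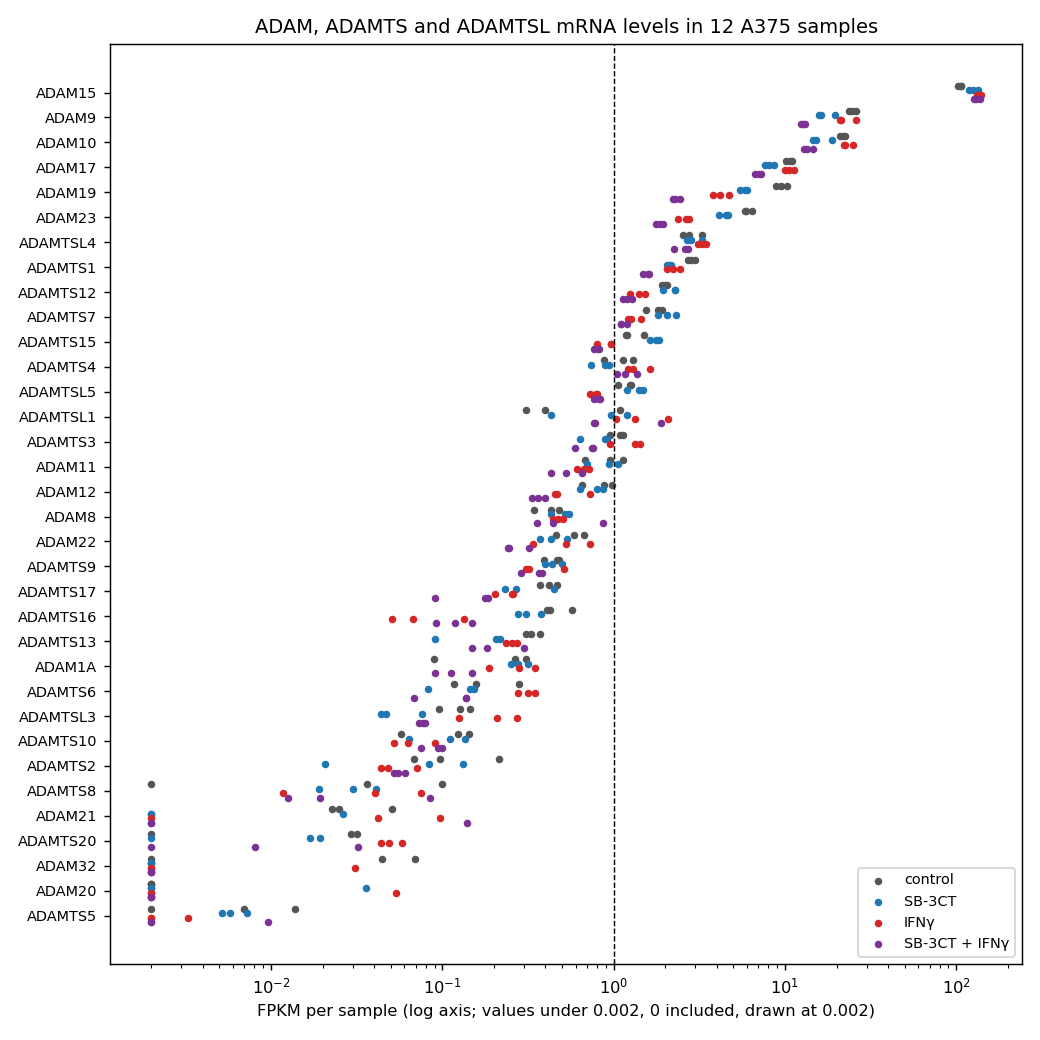
FPKM of the 34 ADAM, ADAMTS and ADAMTSL genes that have a row (ordered by mean) in each of the 12 samples on a log axis, with color for the group and a dashed line at 1 FPKM. ADAM15 lies above 100 FPKM in all 12 samples, and 14 of the 34 genes have a mean to the right of the line.

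ADAM15 made up a larger share of the family's mRNA in each treated group than in control cells. It was 53.2% ± 0.762 of the summed FPKM of the 34 genes in control cells, 63.8% ± 2.98 under SB-3CT, 62.5% ± 2.38 with IFNγ and 71.8% ± 1.46 with both (SD, n = 3 each). The summed FPKM itself was 198 ± 4.50, 197 ± 6.18, 218 ± 4.97 and 184 ± 3.996 in the same order. The ADAM15 shares of the SB-3CT and IFNγ samples overlapped, and differences in share were not tested.

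The first question is how IFNγ changed the family, asked once in cells without and once in cells with SB-3CT. These comparisons share no samples. Without SB-3CT, limma called 7 of the 34 genes (20.6%), 1 higher and 6 lower, at an adjusted p under 0.05 (Benjamini-Hochberg over all genes), against 19.5% of all genes called, 8.46% higher and 11% lower. With SB-3CT, 14 of 34 (41.2%) were called, 1 higher and 13 lower, against 40.5% of all genes, 7.85% higher and 32.7% lower. The members' shares were near those of all genes in both comparisons. Of the 14 members over 1 FPKM, 5 and 9 were called, against 25.7% and 54.4% of all genes over 1 FPKM. Of the calls, 5 were common to both and all lower, namely ADAM19, ADAM23, ADAMTS12, ADAMTS16 and ADAMTSL5, which is 71.4% of the first list and 35.7% of the second. The matching shares over all genes were not computed, so whether this sharing is particular to the members is not known.

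The second question is how SB-3CT changed the family, alone and on top of IFNγ. Alone, SB-3CT gave 7 calls (20.6%), 1 higher and 6 lower, against 12.2% of all genes, 5.37% higher and 6.87% lower. On top of IFNγ it gave 12 calls (35.3%), 0 higher and 12 lower, against 37.9% of all genes, 6.41% higher and 31.5% lower. ADAM9, ADAM10, ADAM17, ADAM19, ADAM23 and ADAMTS1 fell in both, which is 85.7% of the first list and 50% of the second, and again no samples are shared. Here too the matching shares over all genes were not computed. Of the 14 members over 1 FPKM, 7 and 7 were called, against 17.2% and 52% of all genes over 1 FPKM. The calls of SB-3CT alone changed when single samples were left out, as did those over all genes. Leaving out any of control 1, 2 or 3, SB-3CT 2 or SB-3CT 3 left only 1 of the 7, ADAM19. Calls over all genes then went from 602 to between 73 and 88. Leaving out SB-3CT 1 gave 8 calls, with 912 over all genes.

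The values of the combined treatment depend on how samples are scaled. As deposited, the median change of genes of at least 1 FPKM was -0.21 log2 for SB-3CT + IFNγ against SB-3CT and -0.20 log2 against IFNγ, while it was -0.04 for IFNγ and -0.03 for SB-3CT against control. Against IFNγ, 315 genes of the table were called higher and 1547 lower as deposited, which became 811 higher and 760 lower when samples were scaled by their median ratio. Against SB-3CT the split was 386 higher and 1608 lower as deposited, and 675 against 504 after that scaling. The members called against IFNγ went from 12 to 7 (1 higher, 6 lower) and those called against SB-3CT from 14 to 11 (2 higher, 9 lower). Members have long transcripts, with a median of 5763 bases against 3151.5 for genes over 1 FPKM, and removing each sample's trend with transcript length gave 5 and 11 calls. Over all genes the counts were then 1031 and 1496.

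**Figure D2:**
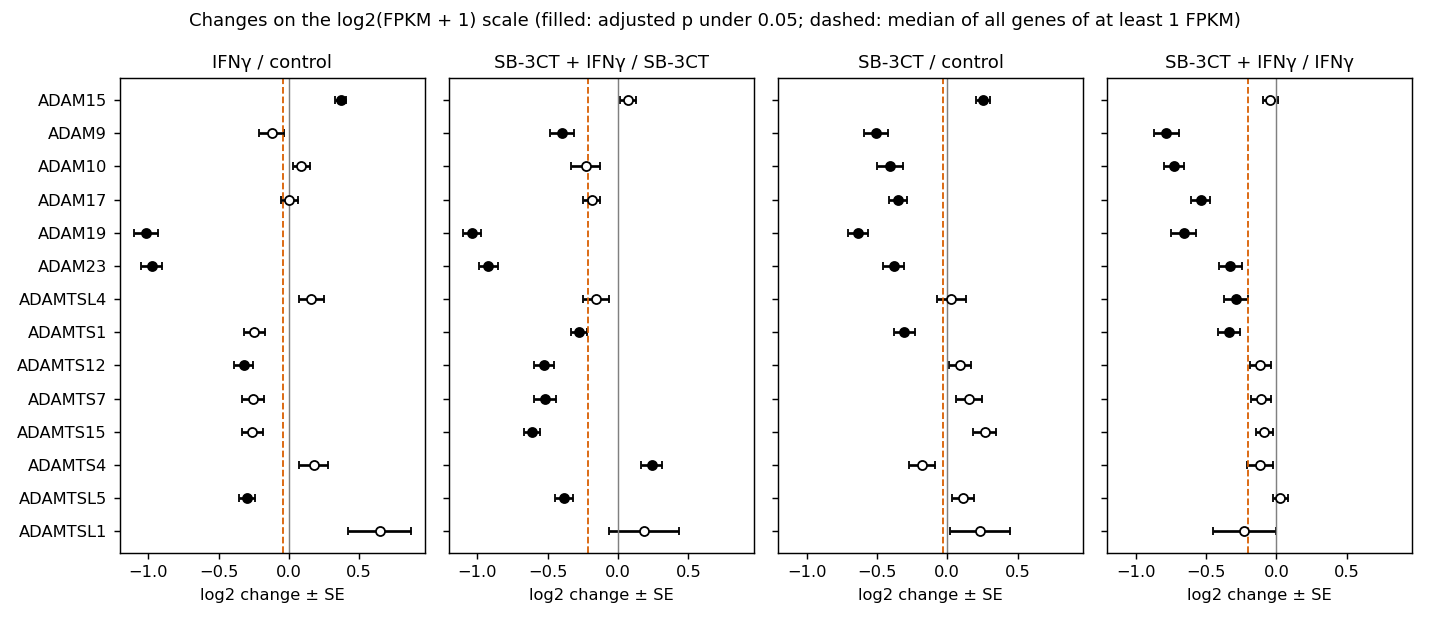
Change on the log2(FPKM + 1) scale ± SE for the 14 genes over 1 FPKM in the 4 comparisons, filled where the adjusted p was under 0.05; the dashed line is the median of all genes of at least 1 FPKM. ADAM19 and ADAM23 lie left of 0 in all 4 panels, and ADAM15 lies right of 0 for IFNγ and for SB-3CT against control.

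Among the catalytic ADAMs, ADAM10 and ADAM17, the principal sheddases, and ADAM9, a related shedding enzyme, fell with SB-3CT and were not called with IFNγ alone. ADAM10 (chr15:58881008-59041990, minus strand, GRCh37) measured 20.9, 21.8 and 22.5 FPKM in control cells, 18.9, 14.5 and 15.2 under SB-3CT, 24.9, 22.4 and 22.1 under IFNγ, and 12.9, 14.5 and 13.4 with both. All 3 SB-3CT samples were below all controls, and the combined samples were well below those given IFNγ. Such separation was common over all genes, here and for the members below. Groups did not overlap for 33.9% of all genes with SB-3CT alone and for 49% with SB-3CT on top of IFNγ. The shares were 36.9% with IFNγ alone and 51.7% with IFNγ on top of SB-3CT. The change was -0.41 log2 (SE 0.09, adjusted p = 0.0354) for SB-3CT alone and -0.73 (SE 0.07, adjusted p = 0.00207) on top of IFNγ, where the mean fell by 41.3%. IFNγ alone gave 0.09 log2 with a 95% interval of -0.05 to 0.23.

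ADAM17, also known as TACE, the enzyme that releases TNF, measured 10.9, 10.8 and 10.1 FPKM in control cells, 8.64, 8.04 and 7.67 under SB-3CT, 11.3, 10.1 and 10.5 under IFNγ, and 6.70, 7.02 and 7.27 with both (chr2:9628615-9696861, minus strand). Neither SB-3CT group overlapped the group it was compared with, whereas IFNγ and control samples overlapped. The fall was -0.35 log2 (SE 0.06, adjusted p = 0.0214) without and -0.54 (SE 0.07, adjusted p = 0.00236) with IFNγ. IFNγ alone changed ADAM17 by 0.00 log2, with an interval of -0.15 to 0.15.

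ADAM9 measured 24.8, 23.6 and 25.9 FPKM in control cells, 19.7, 15.7 and 16.3 under SB-3CT, 26.0, 21.0 and 21.2 under IFNγ, and 12.3, 13.1 and 12.8 with both. The combined samples lay below every other sample. SB-3CT changed it by -0.51 log2 (SE 0.09, adjusted p = 0.0169) alone and by -0.78 (SE 0.09, adjusted p = 0.00207) on top of IFNγ. IFNγ on top of SB-3CT also gave a fall, -0.40 log2 (adjusted p = 0.0131), which was not called after median-ratio scaling or quantile normalization. On top of IFNγ, the falls of ADAM9, ADAM10 and ADAM17 were called under every alternative tried. Their sizes depended on the scaling and shrank to -0.50, -0.31 and -0.26 log2 with the length trend removed.

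Whether IFNγ altered the SB-3CT change of these 3 genes was tested as a difference of changes over all 12 samples, and none was called. It was -0.28 log2 for ADAM9 (adjusted p = 0.148), -0.32 for ADAM10 (adjusted p = 0.088) and -0.19 for ADAM17 (adjusted p = 0.145).

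ADAM15, a disintegrin-type sheddase that binds integrins, was the member that rose with each agent alone. ADAM15 (chr1:155023042-155035251, plus strand) measured 103, 106 and 107 FPKM in control cells, 119, 125 and 133 under SB-3CT, 133, 136 and 139 under IFNγ, and 138, 128 and 130.1 with both. All treated samples exceeded all controls, and the combined samples overlapped both single treatments. IFNγ alone raised it by 0.37 log2 (SE 0.04, adjusted p = 0.00183) and SB-3CT alone by 0.25 (SE 0.05, adjusted p = 0.0263). Adding IFNγ to SB-3CT gave 0.07 (interval -0.06 to 0.21) and adding SB-3CT to IFNγ gave -0.04 (interval -0.16 to 0.08). The difference of its 2 SB-3CT changes, the one under IFNγ minus the one without, was -0.29 log2 (SE 0.07, adjusted p = 0.0145). After median-ratio scaling that difference was -0.08 and not called, the value against SB-3CT rose to 0.33 (adjusted p = 0.0204), and the value against IFNγ turned to 0.21 (adjusted p = 0.0419).

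ADAM19, also called meltrin beta, a sheddase of neuregulin, fell with both agents (chr5:156822542-157002783, minus strand). It measured 9.51, 8.91 and 10.3 FPKM in control cells, 5.88, 5.49 and 6.001 under SB-3CT, 4.71, 3.82 and 4.16 under IFNγ, and 2.21, 2.27 and 2.42 with both. No 2 groups overlapped, and the combined mean was 24.1% of the control mean. IFNγ changed it by -1.02 log2 (SE 0.09, adjusted p = 0.000821) alone and -1.04 (SE 0.06, adjusted p = 0.000237) on top of SB-3CT. SB-3CT changed it by -0.64 (SE 0.07, adjusted p = 0.00596) alone and -0.66 (SE 0.09, adjusted p = 0.0027) on top of IFNγ. The difference of the SB-3CT changes was -0.02 log2 with an interval of -0.27 to 0.22. Each of its 4 calls was kept under every alternative tried, and the fall on top of IFNγ was smallest, -0.38 log2, with the length trend removed. The ADAM19 upstream window, printed above, held no GC box, nor did those of ADAMTS6, ADAMTSL1, ADAM20 and ADAM21. Any link to the changes of these genes was not tested.

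Of the other catalytic ADAMs, ADAM12, a sheddase of EGF family ligands that muscle and placenta express, averaged 0.840, 0.766, 0.550 and 0.363 FPKM in control, SB-3CT, IFNγ and combined cells. It fell with IFNγ on top of SB-3CT (-0.37 log2, adjusted p = 0.00452). ADAM8, a leukocyte-enriched sheddase, was never called and reached a group mean of at most 0.556 FPKM.

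Of the ADAMs without a working zinc site, ADAM23, an adhesion molecule that binds LGI proteins, was the most abundant (chr2:207308256-207485851, plus strand). It measured 5.89, 5.88 and 6.41 FPKM in control cells, 4.63, 4.12 and 4.51 under SB-3CT, 2.75, 2.37 and 2.65 under IFNγ, and 1.78, 1.87 and 1.94 with both. The 4 groups did not overlap, and the combined mean was 30.7% of control. IFNγ changed it by -0.98 log2 (SE 0.07, adjusted p = 0.000472) alone and -0.92 (SE 0.07, adjusted p = 0.000414) on top of SB-3CT. SB-3CT changed it by -0.38 (SE 0.07, adjusted p = 0.0238) alone and -0.33 (SE 0.08, adjusted p = 0.0171) on top of IFNγ. The last value ranged from -0.46 to -0.05 over the alternatives and lost its call under median-ratio scaling, quantile normalization and removal of the length trend, and without IFNγ 3, SB-3CT + IFNγ 1 or SB-3CT + IFNγ 2, with adjusted p up to 0.617.

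ADAM11 and ADAM22, like ADAM23 neural adhesion molecules, were low. ADAM11 fell with IFNγ on top of SB-3CT (adjusted p = 0.0377), and ADAM22 fell in both comparisons with the combined treatment, by -0.19 log2 against SB-3CT (adjusted p = 0.028) and -0.26 against IFNγ (adjusted p = 0.0493). The call of ADAM11 held in 4 of 13 alternatives and those of ADAM22 in 5 and 3 of 13, with adjusted p up to 0.200, 0.114 and 0.218, and leaving out single samples of either group was enough to lose each.

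**Figure D3:**
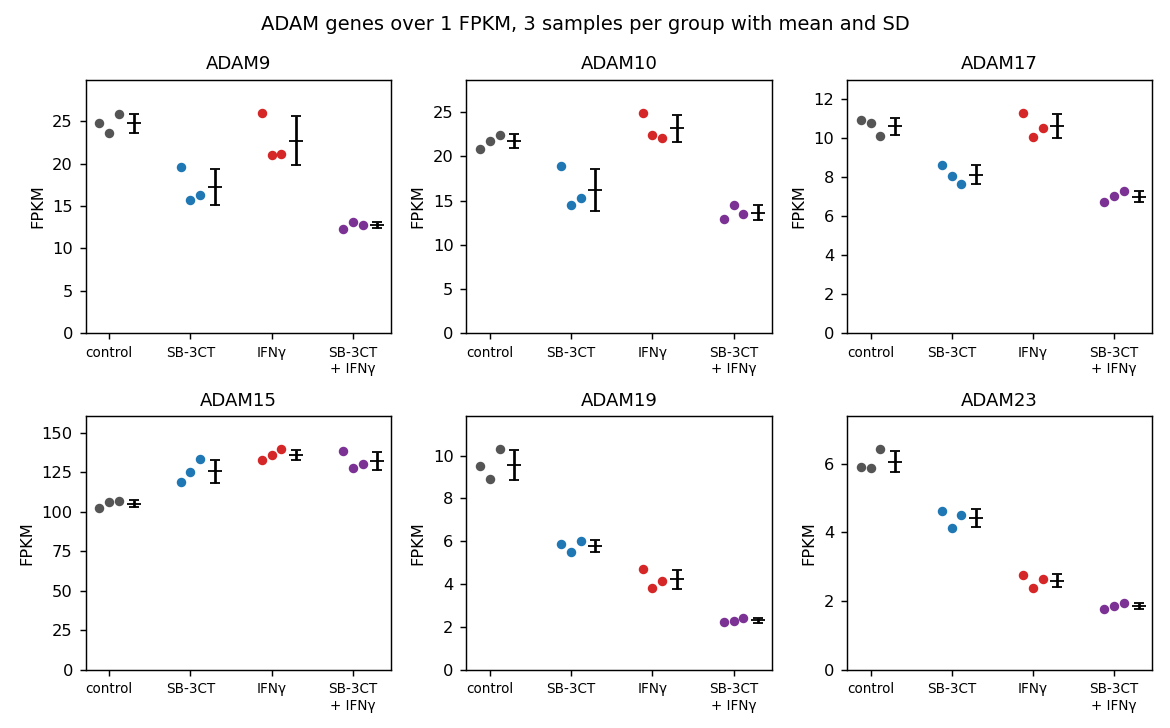
FPKM per sample for the 6 ADAM genes over 1 FPKM, with 3 points per group and the mean ± SD. ADAM19 and ADAM23 step down through control, SB-3CT, IFNγ and both, from means of 9.57 to 2.30 and 6.06 to 1.86 FPKM, while ADAM15 lies lowest in control cells.

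In the secreted family, ADAMTS1, which cuts aggrecan and versican, was the most abundant gene (chr21:28208074-28217728, minus strand). It measured 2.72, 2.81 and 2.98 FPKM in control cells, 2.04, 2.11 and 2.16 under SB-3CT, 2.45, 2.05 and 2.21 under IFNγ, and 1.49, 1.61 and 1.59 with both. Each treated group lay below the controls, and the combined samples lay below all others. SB-3CT changed it by -0.31 log2 alone (SE 0.07, adjusted p = 0.0396) and -0.34 on top of IFNγ (SE 0.08, adjusted p = 0.0152), and IFNγ on top of SB-3CT by -0.28 (adjusted p = 0.0129). IFNγ alone missed the threshold (-0.25, adjusted p = 0.0688). These 3 calls were lost under quantile normalization and with the length trend removed, and both calls of the combined treatment under median-ratio scaling. The call of SB-3CT alone was also lost without any 1 of the controls or without SB-3CT 2 or 3, and the one on top of IFNγ without SB-3CT + IFNγ 1. Adjusted p reached 0.114, 0.417 and 0.261 over the alternatives.

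ADAMTS15, another aggrecanase, separated by IFNγ status (chr11:130318540-130346540, plus strand). It measured 1.19, 1.18 and 1.496 FPKM in control cells, 1.77, 1.63 and 1.84 under SB-3CT, 0.962, 0.805 and 0.964 under IFNγ, and 0.820, 0.816 and 0.764 with both. The SB-3CT samples were the highest and the IFNγ-containing samples the lowest, without overlap between these and control. IFNγ on top of SB-3CT gave -0.61 log2 (SE 0.06, adjusted p = 0.000809), where the mean fell by 54.2%. IFNγ alone (-0.26, adjusted p = 0.0606) and SB-3CT alone (0.27, adjusted p = 0.0792) missed the threshold. The difference of the SB-3CT changes was -0.35 log2 (SE 0.10, adjusted p = 0.0248).

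ADAMTS12 and ADAMTS7 cut COMP, a cartilage matrix protein. ADAMTS12 (chr5:33523640-33892124, minus strand) measured 1.91, 1.98 and 2.05 FPKM in control cells, 2.29, 1.95 and 2.28 under SB-3CT, 1.41, 1.24 and 1.52 under IFNγ, and 1.20, 1.28 and 1.14 with both. ADAMTS7 measured 1.54, 1.81 and 1.90, then 1.82, 2.05 and 2.31, then 1.44, 1.26 and 1.21, and 1.11, 1.10 and 1.19 FPKM in the same order of groups. For each gene the samples with IFNγ lay below the samples without IFNγ. ADAMTS12 fell with IFNγ alone (-0.32 log2, adjusted p = 0.0218) and on top of SB-3CT (-0.52, adjusted p = 0.00287). The call with IFNγ alone was lost without control 1, 2 or 3 or IFNγ 1, with adjusted p up to 0.0806 over the alternatives. ADAMTS7 fell on top of SB-3CT (-0.52, adjusted p = 0.00379) and gave -0.25 with IFNγ alone (adjusted p = 0.0719). ADAMTS7 has near-identical pseudogene copies whose reads may be shared, so its level is uncertain.

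ADAMTS4, aggrecanase-1, was the member that rose with IFNγ on top of SB-3CT. It measured 0.886, 0.742 and 0.939 FPKM with SB-3CT and 1.05, 1.36 and 1.16 with both, which do not overlap. The change was 0.24 log2 (SE 0.08, adjusted p = 0.0466), a call lost in 8 of 14 alternatives, among them those without any 1 of the SB-3CT samples or without SB-3CT + IFNγ 2 or 3 (adjusted p up to 0.124). Control cells had 1.13, 1.299 and 0.884 FPKM and IFNγ cells 1.62, 1.302 and 1.21.

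Among ADAMTS genes under 1 FPKM, ADAMTS16, a protease linked to kidney and gonad, was called lower with IFNγ in both comparisons. It went from 0.408, 0.568 and 0.424 FPKM in control cells to 0.133, 0.0510 and 0.0678 with IFNγ (adjusted p = 0.00303), and from 0.379, 0.276 and 0.309 with SB-3CT to 0.119, 0.0917 and 0.148 with both (adjusted p = 0.00443). The groups did not overlap in either comparison, and both calls held in all 13 alternatives. ADAMTS17, tied to fibrillin microfibrils, averaged 0.419 FPKM in control and 0.239 in IFNγ cells (-0.20 log2, adjusted p = 0.0161), and the call was lost without control 1 (adjusted p up to 0.0585).

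ADAMTS3, a procollagen and VEGFC-processing protease, measured 1.43, 0.953 and 1.33 FPKM with IFNγ and 0.594, 0.743 and 0.755 with both (-0.39 log2, adjusted p = 0.0154). ADAMTS6, which acts on fibrillin matrix, measured 0.345, 0.316 and 0.275 FPKM with IFNγ and 0.0684, 0.138 and 0.137 with both (-0.24 log2, adjusted p = 0.00406). The combined samples lay below the IFNγ samples for both genes. The ADAMTS6 call held in all 13 alternatives, and that of ADAMTS3 was lost with the length trend removed, under quantile normalization and without IFNγ 1, IFNγ 3 or SB-3CT + IFNγ 1 (adjusted p up to 0.0966).

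**Figure D4:**
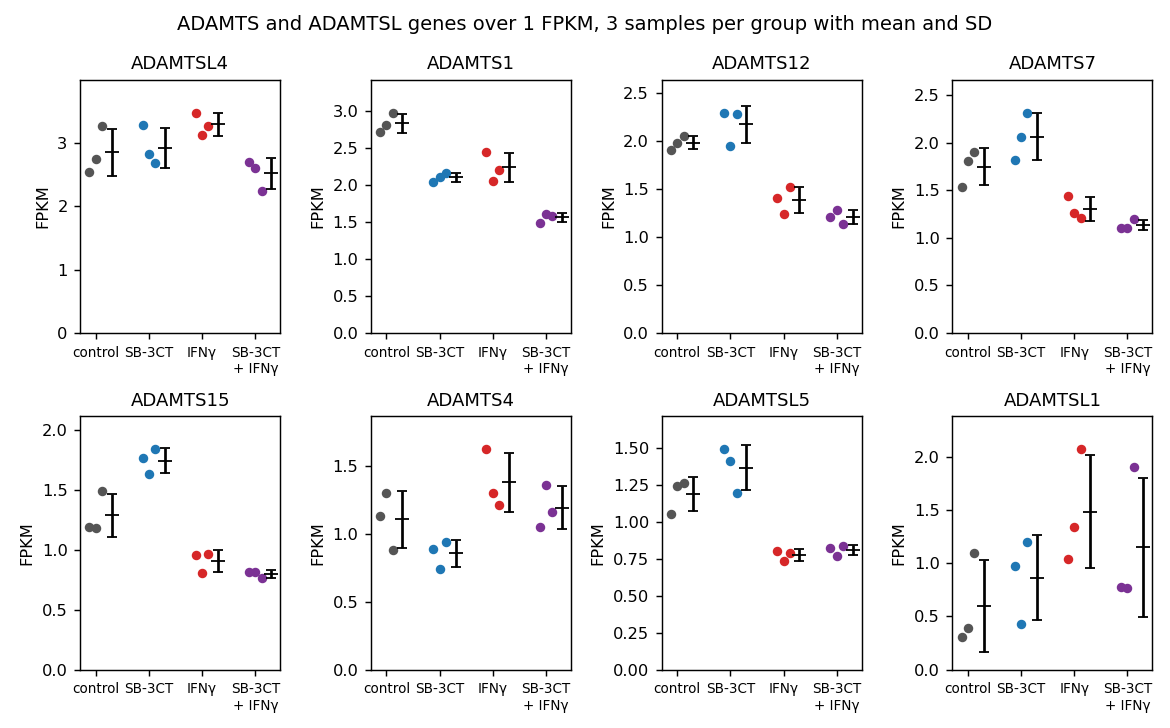
FPKM per sample for the 8 ADAMTS and ADAMTSL genes over 1 FPKM, with 3 points per group and the mean ± SD. ADAMTS12, ADAMTS7, ADAMTS15 and ADAMTSL5 are lower in the IFNγ-containing groups, and ADAMTSL1 spreads widely within each group.

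ADAMTSL5, a microfibril-associated protein without protease domain, measured 1.05, 1.24 and 1.26 FPKM in control cells, 1.49, 1.41 and 1.20 under SB-3CT, 0.804, 0.731 and 0.790 under IFNγ, and 0.825, 0.767 and 0.835 with both. Samples with IFNγ lay below those without it, with no overlap. It fell with IFNγ alone (-0.30 log2, adjusted p = 0.0161) and on top of SB-3CT (-0.38, adjusted p = 0.00554). The first call was lost without control 2, control 3 or IFNγ 3, with adjusted p up to 0.0601, and the second held in all alternatives.

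ADAMTSL4, a fibrillin-binding protein of the lens suspension, measured 3.47, 3.12 and 3.27 FPKM with IFNγ and 2.70, 2.60 and 2.24 with both (-0.29 log2, SE 0.09, adjusted p = 0.0379), a call lost in 9 of 14 alternatives, among them those without IFNγ 1 or 3 or any 1 of the combined samples (adjusted p up to 0.997). Its level is uncertain because antisense RNAs overlap the gene, and the sources used here do not say that counting used strand. ADAMTSL3 fell in the same comparison (-0.16 log2, adjusted p = 0.0303) from a low level, a call that held in 4 of 13 alternatives. ADAMTSL1, a matrix glycoprotein, was the member over 1 FPKM that no pairwise comparison called. The pseudogene ADAM1A fell in both comparisons with the combined treatment, by -0.20 log2 against SB-3CT (adjusted p = 0.00465) and -0.19 against IFNγ (adjusted p = 0.0229), the latter held in 6 of 13 alternatives and the former in all 13.

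Altogether 22 of the 34 genes were called in at least 1 of the 4 pairwise comparisons. The matching share of all genes was not computed, and each comparison alone called 12.2% to 40.5% of them. The count is therefore not read as a result about these families. The 11 genes at or under 1 FPKM that no comparison called had means of 0.00432 to 0.488 FPKM. In the difference of the SB-3CT changes, 2 of 34 were called (5.88%), ADAM15 and ADAMTS15, both lower, against 22.3% of all genes, 17.6% lower. Both exceed 1 FPKM, where 32.3% of genes were called.

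**Figure D5:**
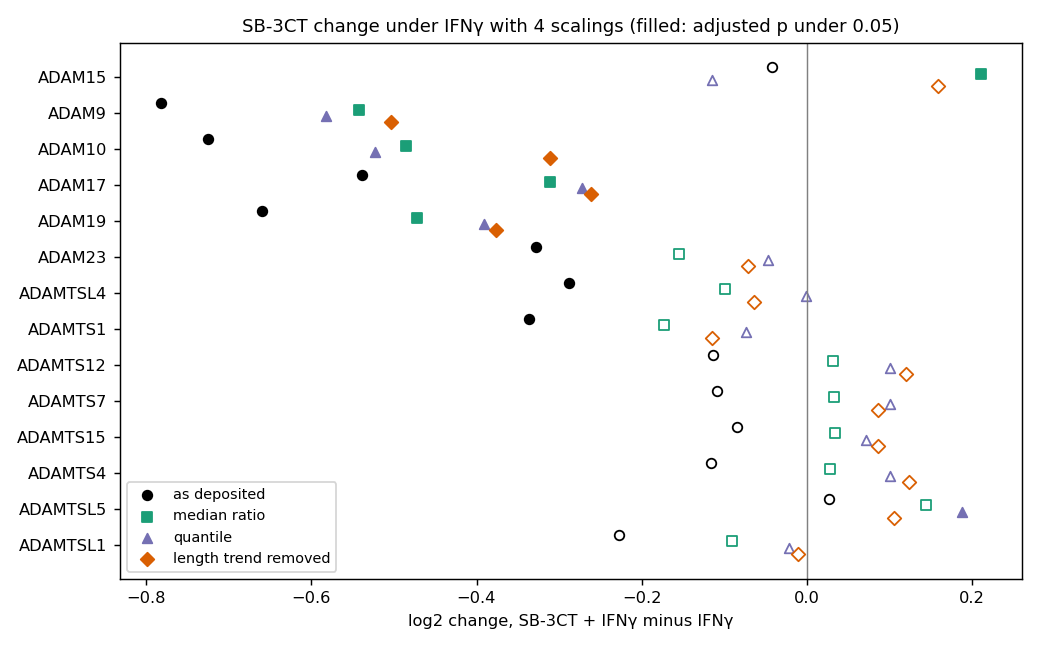
Change of the 14 genes over 1 FPKM for SB-3CT + IFNγ minus IFNγ under 4 scalings of the samples, filled where the adjusted p was under 0.05. ADAM9, ADAM10, ADAM17 and ADAM19 lie left of 0 and are filled under all 4, whereas ADAM15 moves from -0.04 to 0.21 with median-ratio scaling.

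Genes of the wider pathway were read from lists of known shedding substrates, matrix partners, and inhibitors or parallel proteases. Of 29 shed membrane proteins measured, IFNγ raised 10 and lowered 3, against 8.46% and 11% of all genes, with a median change of 0.04 log2 against -0.02 for all genes. CD274, the checkpoint ligand PD-L1, went from 0.543 to 21.7 FPKM (3.88 log2), CSF1, a macrophage growth factor, went from 3.68 to 34.4 FPKM (2.91 log2), and CD40, a costimulatory receptor, from 2.30 to 12.7 (2.05 log2). SB-3CT alone raised 1 and lowered 4 of them, against 5.37% and 6.87% of all genes. On top of IFNγ it raised 0 and lowered 15, against 6.41% and 31.5% of all genes, with a median of -0.36 log2 against -0.09 for all genes. The number lowered was 12 after median-ratio scaling, 13 after quantile normalization and 9 with the length trend removed, with 0 raised in each. Of all 4918 genes, 760, 714 and 676 were then lowered and 811, 542 and 355 raised, in the same order. Among the shed membrane proteins lowered, N-cadherin (CDH2) went from 12.4 to 7.23 FPKM, EFNB2, an ephrin ligand, from 7.12 to 4.19, and APP, the amyloid precursor, from 134 to 88.7.

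Of 14 matrix genes, IFNγ raised 2 and lowered 1, against 8.46% and 11% of all genes. SB-3CT alone raised 1 and lowered 1 of them, against 5.37% and 6.87% of all genes. On top of IFNγ it raised 0 and lowered 6, against 6.41% and 31.5% of all genes. FAM20C, the kinase that phosphorylates secreted proteins, went from 6.63 to 15.0 FPKM with IFNγ (1.07 log2) and changed by -0.68 log2 with SB-3CT on top. With SB-3CT alone its mean went the other way, from 6.63 FPKM in control cells to 9.32 FPKM. Of 17 processing and inhibitor genes, IFNγ raised 4 and lowered 3, against the same 8.46% and 11%. A2M, a broad protease trap, went from 2.70 to 38.1 FPKM (3.40 log2), while CD9, a tetraspanin partner of ADAM10 and ADAM17, changed by -0.69 log2. SB-3CT alone raised 4 and lowered 1, against 5.37% and 6.87% of all genes, with CD82 at 0.58 log2 and CTSL, a lysosomal protease, at 0.45. On top of IFNγ it raised 2 and lowered 3, against 6.41% and 31.5%. IFNγ on top of SB-3CT raised 8 and lowered 12 shed, 0 and 4 matrix, and 4 and 8 processing genes. The shares of all genes were 7.85% and 32.7%. After median-ratio scaling the counts were 9 and 6, 0 and 3, and 5 and 3, with 675 and 504 over all genes.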

How the data were processed

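RNA from 12 A375 samples (3 in each of 4 groups) was sequenced as paired 150-base reads. The processing notes of the submitters name HISAT2 2.0.5, StringTie 1.3.3 and hg19. The annotation and the counting strand are not given in the sources used here. The authors deposited 1 table whose values, from 0 to 12.16, are log2(FPKM + 1). FPKM was recovered as 2 to the power of the value, minus 1. Summed FPKM over the genes used here was 121928 to 129692 per sample, and absolute depth is unknown. No depth-based interval is given. Each sample was put in its group by its label.

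Comparisons were fitted on the deposited log2 values with limma 3.58.1 in R 4.3.3 (lmFit, then eBayes with a variance trend), with the 6 samples of each comparison, and over all 12 for the difference of the SB-3CT changes. Adjusted p-values are Benjamini-Hochberg over 4918 genes, and a call is an adjusted p under 0.05. Changes on this scale, which has a pseudocount of 1, understate those of low genes. An exact permutation test of 3 against 3 cannot go below p = 0.1 and was not used. The fit was tested on simulated data.

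The members, gene lists and tests were chosen with earlier results of these data known. Named were members with a mean over 1 FPKM or called in any comparison, others only by counts and range with the names of those over 0.5 FPKM in a group. From the pathway lists, at most the 3 largest rises and falls with a mean of at least 1 FPKM were named. Catalytic roles came from textbook knowledge, because protein sequences were not used here. Positions come from GENCODE in GRCh37, matched by symbol for all 34 genes, and promoter windows from RefSeq. The check of replicate numbers gave correlations of deviations from -0.39 to 0.17, so the numbers were not taken to pair the samples. Alternatives were a pseudocount of 0.1, a filter at a mean of 1 FPKM, median-ratio scaling, quantile normalization, all groups in 1 fit, a replicate block, no variance trend, removal of a length trend (length known for 90.6% of genes) and leaving out each sample.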

Additional observations from a re-analysis of the deposited data

Results flagged for a closer look

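The SB-3CT change of 2 genes differed between cells with and without IFNγ in the limma test of that difference over 12 samples. For ADAM15 the difference was -0.29 log2 (SE 0.07, adjusted p = 0.0145), with 0.25 log2 for SB-3CT alone and -0.04 on top of IFNγ. For ADAMTS15 it was -0.35 log2 (SE 0.10, adjusted p = 0.0248), and neither of its 2 SB-3CT changes was called on its own (adjusted p = 0.0792 and 0.326). Over the alternatives the ADAM15 value ran from -0.34 to -0.08 with adjusted p from 0.00996 to 0.638, and the ADAMTS15 value from -0.58 to -0.23 with adjusted p from 0.0141 to 0.122. ADAM15 stayed called in 17 of 19 alternatives and ADAMTS15 in 10 of 19. The median of this difference over genes of at least 1 FPKM was -0.19 log2 as deposited, and its part in these 2 values was not tested.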

How the results depend on the processing

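Every called gene kept its direction in every alternative run, and calls kept in all of them were 4 of 7 (IFNγ against control), 9 of 14 (SB-3CT + IFNγ against SB-3CT), 1 of 7 (SB-3CT against control), 5 of 12 (SB-3CT + IFNγ against IFNγ) and 0 of 2 (difference of the SB-3CT changes). For IFNγ against control, 11 genes instead of 7 were called with all 4 groups in one fit and 11 with the length trend removed. Over all genes these counts went from 958 to 1207 and 1255. For SB-3CT + IFNγ against IFNγ, the 12 calls became 7 with the filter at a mean of 1 FPKM, which tests fewer members, 7 with median-ratio scaling, 6 with quantile normalization and 5 with the length trend removed. The 2 calls of the difference became 0, 1 and 0 under the last 3 of these. Over all genes, the calls against IFNγ went from 1862 to 1841, 1571, 1256 and 1031 under the same settings. Those of the difference went from 1099 to 641, 640 and 505. ADAM15 in SB-3CT + IFNγ against IFNγ reversed from -0.04, not called, to 0.21 with median-ratio scaling. The cause of these changes was not tested. Leaving out single samples gave 5 to 7 calls for IFNγ against control, 11 to 13 for SB-3CT + IFNγ against SB-3CT, 1 to 8 for SB-3CT against control, 6 to 11 for SB-3CT + IFNγ against IFNγ and 1 to 3 for the difference. The 6 came without IFNγ 3 or without SB-3CT + IFNγ 1, with 7 without SB-3CT + IFNγ 2, and the single call of the difference without control 2, SB-3CT 3, IFNγ 3 or SB-3CT + IFNγ 3. Over all genes, leaving out single samples gave 562 to 982, 1507 to 1780, 73 to 912, 1230 to 1977 and 678 to 1450 calls in the same order. With the replicate block, the calls were 5, 11, 4, 9 and 2 in the order above. Over all genes they were 775, 1361, 259, 1609 and 1082, against 958, 1994, 602, 1862 and 1099 without it. The block ended the calls of ADAMTS12, ADAMTS17 and ADAMTSL5 with IFNγ alone, of ADAM10, ADAM23 and ADAMTS1 with SB-3CT alone, of ADAM11, ADAMTS1 and ADAMTS4 with IFNγ on top of SB-3CT, and of ADAM23, ADAMTS1 and ADAMTSL4 with SB-3CT on top of IFNγ. The samples that correlated best with their own number were 4, 0, 4 and 2 of 6 in the 4 pairwise comparisons, so the numbers were not read as a pairing. Of 1676 single-gene values under alternatives, 1494 kept their side of the threshold, 41 gained a call, 140 lost one and 1 reversed. Depth is not known in reads, so it limits what can be said of the 20 genes at or under 1 FPKM.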

Other observations

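ADAMTSL1 was highest in replicate 3 of every group. It measured 0.309, 0.396 and 1.09 FPKM in control cells, 0.970, 0.429 and 1.20 under SB-3CT, 1.04, 1.34 and 2.07 under IFNγ, and 0.779, 0.767 and 1.90 with both. Replicate numbers were not found to pair the samples over all genes.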
